A study of Mus musculus with 18 samples.

Results

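C-type lectin receptors of myeloid cells are surface proteins that bind sugars, lipids, crystals or material from dying cells, and those examined here are Clec4a1, Clec4a2, Clec4a3, Clec4d, Clec4e, Clec4n, Clec5a, Clec7a and Clec12a. They were taken by gene symbol and were 9 of the 25926 genes listed in the expression table. All 9 were measured in every library and all 9 passed the filter on low values in each comparison.

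RNA was sequenced from bone marrow-derived macrophages (BMDMs) from mice of the strain C57BL/6J (C57BL/6 in the strain label), grown for 7 days in 50 ng/mL of the growth factor M-CSF and then kept in the upper chamber of a Transwell above primary renal tubular epithelial cells (TECs) from wild-type mice, with a membrane pore size of 0.4 µm between them. In the NC group the BMDMs received PBS and the TECs no crystals, in the COM group the TECs were exposed to 100 µg/mL of calcium oxalate monohydrate (COM) crystals for 24 h with PBS on the BMDMs, and in the COM+Met group 5.0 mM Met was added to BMDMs above COM-exposed TECs. Each group held 6 libraries, so the comparison of COM with NC addresses what crystal-exposed TECs do to BMDMs, and that of COM+Met with COM addresses what Met does under the same exposure. The crystals were given to the TECs and not to the BMDMs, every group held TECs, and the compound Met is not spelled out in the labels. The methods of the study give mice of 6 to 8 weeks in general, the labels give no age or sex for the mice behind these cells, and they do not say whether the 6 libraries of a group came from separate mice or cultures. All p-values therefore measure the spread between these libraries, which may be technical.

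These receptors divide by the signal they carry. Mincle (Clec4e), MCL (Clec4d) and Dectin-2 (Clec4n) associate with the ITAM adaptor FcRγ, MDL-1 (Clec5a) uses the ITAM adaptor DAP12, and Dectin-1 (Clec7a) carries its own ITAM-like motif, after which the kinase Syk and the CARD9, BCL10 and MALT1 complex lead to NF-κB and to cytokine genes. DCIR (Clec4a2) and MICL (Clec12a) instead hold an inhibitory ITIM that recruits phosphatases such as SHP-1, whereas the DCIR relatives encoded by Clec4a1 and Clec4a3 lack that motif.

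All 9 genes lie on chromosome 6 of the GRCm38 build, in the GENCODE M21 annotation. Clec4a1, Clec4a3, Clec4a2, Clec4n, Clec4d and Clec4e fell, in this order, within 368 kb (chr6:122921848-123289870), a stretch with 9 protein-coding genes, of which Clec4a4, Clec4b1 and Clec4b2 are the remaining ones. Clec4d, on the plus strand, and Clec4e, on the minus strand, ended tail to tail with 6.52 kb between them. Clec12a (chr6:129342691-129365303) and Clec7a (chr6:129461591-129472779) were 96.3 kb apart, and Clec5a (chr6:40574894-40585821) lay away from the rest. Of the 50-base stretches of its transcripts, Clec4a2 shared 6.69% with other genes, mostly with Clec4a4, while the share was 0.686% for Clec4n, 0.402% for Clec12a and 0% for the other members. A processed pseudogene, Gm44132, lay within Clec4a2 on the same strand, so the level of Clec4a2 is the least certain of the set.

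The start regions of the 4 genes called changed between COM and NC, and of Clec12a, the only other gene with a motif match among those searched, are given so that neighbours with different responses can be compared. Each is the 250 bases before the annotated start in the RefSeq annotation of GRCm38.p6, read 5′ to 3′ along the strand of the gene, with motif matches in capitals. RefSeq start regions were matched for 8 of the 9 genes, and Clec4n, the remaining one, was not searched. The positions are chr6:123289872-123290121 (minus strand) for Clec4e, chr6:123261857-123262106 (plus) for Clec4d, chr6:122921598-122921847 (plus) for Clec4a1, chr6:123122440-123122689 (plus) for Clec4a2 and chr6:129349994-129350243 (plus) for Clec12a. The windows of Clec4a2 and Clec12a lie inside the GENCODE genes, which start further upstream at chr6:123106428 and chr6:129342691.
Clec4e: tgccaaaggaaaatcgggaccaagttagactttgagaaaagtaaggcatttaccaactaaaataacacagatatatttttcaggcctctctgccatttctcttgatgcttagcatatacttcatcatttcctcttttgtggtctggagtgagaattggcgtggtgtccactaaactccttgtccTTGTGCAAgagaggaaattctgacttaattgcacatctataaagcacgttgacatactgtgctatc
Clec4d: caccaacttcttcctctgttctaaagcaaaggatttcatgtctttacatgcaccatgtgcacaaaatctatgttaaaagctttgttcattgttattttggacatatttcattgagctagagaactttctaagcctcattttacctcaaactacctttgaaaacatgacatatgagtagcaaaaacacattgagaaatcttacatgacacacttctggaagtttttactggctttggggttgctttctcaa
Clec4a1: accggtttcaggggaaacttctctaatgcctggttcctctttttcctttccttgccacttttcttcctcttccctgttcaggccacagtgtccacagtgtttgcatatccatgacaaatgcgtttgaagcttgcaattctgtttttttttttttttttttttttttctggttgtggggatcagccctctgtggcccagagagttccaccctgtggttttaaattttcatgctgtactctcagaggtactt
Clec4a2: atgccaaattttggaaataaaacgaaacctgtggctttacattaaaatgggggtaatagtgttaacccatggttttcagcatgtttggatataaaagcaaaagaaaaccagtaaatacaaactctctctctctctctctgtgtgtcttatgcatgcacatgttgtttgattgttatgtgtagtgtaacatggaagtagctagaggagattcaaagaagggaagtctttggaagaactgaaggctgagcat
Clec12a: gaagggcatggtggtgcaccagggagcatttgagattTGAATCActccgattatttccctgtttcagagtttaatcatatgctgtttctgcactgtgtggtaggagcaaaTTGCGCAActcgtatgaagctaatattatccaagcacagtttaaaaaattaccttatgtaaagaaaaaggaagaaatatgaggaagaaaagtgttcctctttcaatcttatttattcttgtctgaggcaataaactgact

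Exact matches were searched on both strands for a C/EBP motif (TTGCNNAA), an AP-1 motif (TGANTCA), a PU.1 motif (GAGGAAGT) and an NF-κB motif (GGANTTTCC). The C/EBP motif occurred at bases -66 to -59 of Clec4e as TTGTGCAA, which is its reverse-strand form, and at bases -140 to -133 of Clec12a as TTGCGCAA, and was present in 9.56% of 32851 mouse start regions of this length. Clec12a also held the AP-1 motif at bases -213 to -207 (TGAATCA), a motif found in 6.75% of the regions, and it did not overlap the C/EBP match. The PU.1 and NF-κB motifs, present in 2.44% and 1.07% of the regions, had no match in the windows of the set. A match of letters is a description of the window and was not measured as binding.

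The values are FPKM, a read level scaled for transcript length and library size, so levels can be set beside each other between genes. Differences were fitted with limma on log2(FPKM + 1), and a gene was called when its Benjamini-Hochberg adjusted p over all genes tested was below 0.05 and its change was at least 2-fold. Some libraries stood apart within their group. In NC-5 and NC-6 all 9 members were lower than in any of NC-1 to NC-4, and COM-4 to COM-6 differed from COM-1 to COM-3 in several members. The labels give no reason for either split. The summed level of 12 macrophage markers, all at or above 1 FPKM in each group mean, was 12549 to 17336 FPKM in NC, 12146 to 16186 in COM and 14040 to 18887 in COM+Met. Most of it was Lyz2, with a mean of 11610 in NC and 9517 in COM, where the next highest marker averaged 769 and 1270. Of the 12 macrophage markers, 3 were called higher and 0 lower in COM against NC, and 0 in either direction in COM+Met against COM. Adgre1 was at 98.6 to 120 FPKM in NC and 518 to 669 in COM. The 17 tubular epithelial markers summed to 10.99 to 18.4 FPKM in NC, 0.490 to 1.37 in COM and 0.0575 to 0.332 in COM+Met. The sum in NC was nearly all Cdh1, with a mean of 12.9, and the next highest marker averaged 0.879 there. Only 1 of the 17 passed the filter in COM against NC, so the sums follow Cdh1 rather than the list. The 8 monocyte markers summed to 18233 to 18318 FPKM in NC-5 and NC-6, against 1276 to 1618 in the other NC libraries, but that was Chil3, with a mean of 18188 in the pair, and the next highest marker averaged 31.7 there against 215 in the other NC libraries. In COM-1 to COM-3 they summed to 3149 to 3280, in COM-4 to COM-6 to 1952 to 2147, and in COM+Met to 836 to 1120, with 4 of 7 tested called higher and 3 lower in COM against NC and 3 of 6 lower in COM+Met against COM. For 18 neutrophil markers the sums were 559 to 1092 in NC, 1242 to 1871 in COM and 740 to 863 in COM+Met. In every COM library 5 of the markers were at 0, none of which exceeded 1.33 FPKM in NC, and 6 were at 0 in every COM+Met library. Most of the COM sum was Lcn2, at 9.03 to 39.1 FPKM in NC and 640.3 to 1672 in COM, while S100a9 went from 114 to 259 FPKM down to 1.34 to 17.8. Of the neutrophil markers, COM against NC gave 2 higher and 5 lower calls among 12 tested (median log2 fold change -0.92), and COM+Met against COM gave 5 lower calls among 8. Those of 12 dendritic cell markers were 8.99 to 96.5, 71.1 to 238 and 42.5 to 84.0 FPKM in the 3 groups, and in COM they were almost wholly Ccr7, at 203 on average in COM-1 to COM-3 and 62.5 in COM-4 to COM-6. Ccl17 was at 4.20 to 64.7 FPKM in NC and 4.41 to 7.77 in COM. Cd209a was near 0 throughout, at 0 to 0.413 FPKM in NC and at 0 in every COM and COM+Met library. COM against NC gave 2 higher calls and 1 lower call among the 7 dendritic cell markers tested. The part of these shifts in the results below was not tested, and in bulk RNA fewer cells of a type and less RNA per cell cannot be told apart. Of all genes, 5.99% were called higher and 11.7% lower in COM against NC. In COM+Met against COM these shares were 0.608% and 1.61%.

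The lectins did not move together under crystal-exposed TECs. Of the 9 lectins, Clec4e, Clec4a1 and Clec4d rose and Clec4a2 fell in COM against NC, Clec12a and Clec4n passed the adjusted p at under 2-fold, and Clec7a, Clec4a3 and Clec5a did not pass. With Met added, Clec4a2 fell further while the differences of Clec4e (0.22) and Clec4d (0.10) from COM did not pass. Among all 10900 genes tested in the first comparison, 5.99% were called higher, 11.7% were called lower, 53.3% had an adjusted p below 0.05 and 38.2% had groups that did not overlap. Against these shares the set counted 3 called higher, 1 called lower, 6 with an adjusted p below 0.05 and 5 without overlap. The median change of all genes was -0.27 on the log2 scale, and it was -0.0062 after median-of-ratios scaling. The median over the 9 lectins was 0.09, with 6 of them above the median of all genes.

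**Figure D1:**
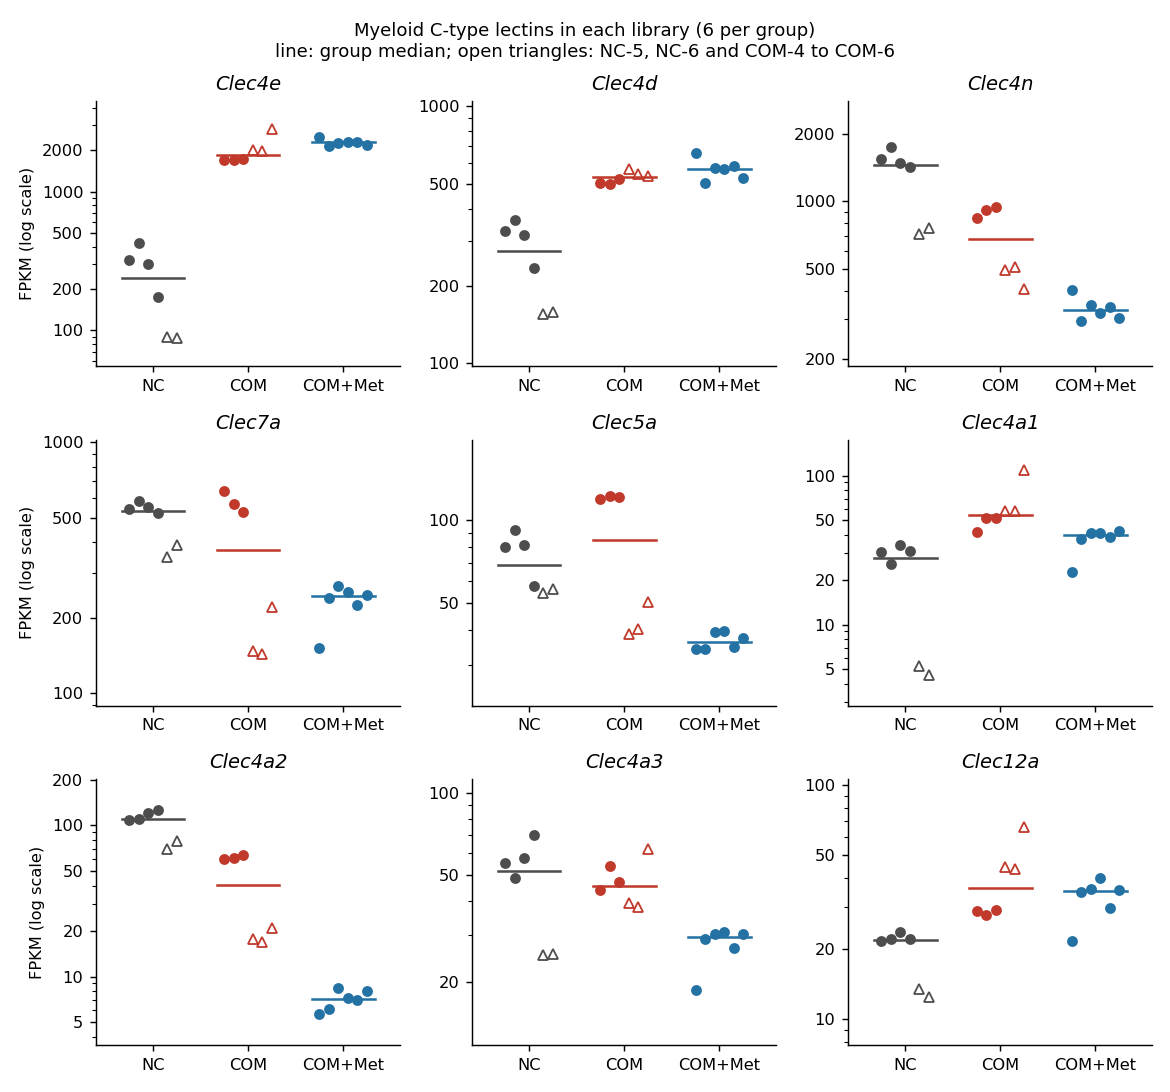
FPKM of each lectin (log axis) in the 6 NC, 6 COM and 6 COM+Met libraries, with a point per library and a line at the group median; open triangles are NC-5, NC-6 and COM-4 to COM-6. Clec4e lies at 87.9 to 427 FPKM in NC and at 1687 or above in every COM and COM+Met library, whereas Clec4a2 steps down from 69.2 to 126 FPKM in NC to 5.65 to 8.34 in COM+Met.

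Clec4e encodes Mincle, which binds the mycobacterial cord factor and the SAP130 protein released by dead cells. In NC its FPKM was 319, 427, 299, 175, 89.4 and 87.9 in libraries 1 to 6. It was 1691, 1687, 1705, 1999, 1970 and 2816 in COM, and 2464, 2132, 2253, 2286, 2286 and 2177 in COM+Met. Every COM and COM+Met library stood above every NC library, and COM-6 was the highest of all 18. The mean rose from 233 ± 138 FPKM (SD, n = 6) to 1978 ± 435, a log2 fold change of 3.30 (SE 0.37, 9.88-fold, limma adjusted p = 1.6e-05). The exact two-sided permutation p was 0.00216, the smallest that 6 against 6 libraries can give, and this same p holds for each gene below whose groups did not overlap. Clec4e stayed called in every alternative run against NC, with a log2 fold change of 2.54 when NC-5, NC-6 and COM-4 to COM-6 were all left out. With COM+Met the mean was 2266 ± 115 FPKM. The difference from COM was 0.22 (95% confidence interval -0.07 to 0.51, adjusted p = 0.298). It was 0.33 with adjusted p = 0.00897 without COM-6, 0.42 with adjusted p = 2.4e-05 against COM-1 to COM-3 and 0.02 with adjusted p = 0.907 against COM-4 to COM-6, each under 2-fold. The difference from NC was 3.52 (SE 0.36, adjusted p = 1.28e-06). By mean FPKM Clec4e ranked 240th among all genes in NC, 18th in COM and 16th in COM+Met.

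Clec4d encodes MCL, the neighbour and partner of Mincle, which helps bring it to the surface. It measured 155, 274 and 361 FPKM at the lowest, median and highest NC library. In COM the corresponding values were 497, 529 and 572, and in COM+Met they were 501, 572 and 656. No COM or COM+Met library reached down to the NC range, and NC-5 and NC-6 were the lowest at 155 and 159 FPKM. Clec4d rose by 1.11 in COM against NC on the log2 scale (SE 0.21, 2.15-fold, limma adjusted p = 0.000843). The change fell just under 2-fold without NC-5 (0.98) or without NC-6 (0.98), and it was 0.79 without both, with adjusted p = 0.001. COM+Met differed from COM by 0.10 (95% confidence interval -0.09 to 0.30, adjusted p = 0.493) and from NC by 1.21 (SE 0.20, adjusted p = 0.000131), a call that was lost at 0.89 without NC-5 and NC-6. Clec4e and Clec4d, adjacent genes, thus moved to different degrees: the ratio of their FPKM was 0.554 to 1.18 in NC, 3.28 to 5.24 in COM and 3.75 to 4.25 in COM+Met.

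Clec4n encodes Dectin-2, a receptor for fungal mannans, and was the most abundant of the 9 in NC. Its lowest, median and highest FPKM were 714, 1455 and 1753 in NC. They were 408, 678 and 944 in COM and 295, 328 and 405 in COM+Met. NC-5 and NC-6, at 714 and 762, lay within the COM range, COM-1 to COM-3 stood at 846 to 944 and COM-4 to COM-6 at 408 to 509, and every COM+Met library lay below every COM library. COM was lower than NC by a log2 change of -0.90 (SE 0.29, 1.86-fold, limma adjusted p = 0.0206), which was not called at 2-fold. It was called at -1.25 without NC-5 and NC-6, at -1.05 without NC-5, at -1.03 without NC-6, at -1.003 without COM-3 and at -1.37 without COM-1 to COM-3. Quantile normalisation also gave a call, at -1.07. The adjusted p did not pass after median-of-ratios scaling (-0.59, adjusted p = 0.0734) or with COM-1 to COM-3 alone (-0.42, adjusted p = 0.25). COM+Met was lower than COM by -0.96 (SE 0.21, adjusted p = 0.0109), just short of 2-fold, and this was called at -1.04, -1.03, -1.096 and -1.02 when COM-4, COM-5, COM-6 or COM+Met-1 was left out. Against NC, Clec4n fell in COM+Met by 1.86 on the log2 scale (SE 0.22, 3.62-fold, adjusted p = 4.7e-06).

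Clec7a encodes Dectin-1, the main macrophage receptor for fungal beta-glucan. The NC libraries ran from 349.9 to 580.5 FPKM with a median of 533. In COM, libraries 1 to 3 had 638, 566 and 525 FPKM and libraries 4 to 6 had 148, 143 and 220. COM+Met libraries had 151, 240.4, 266, 253, 224 and 247. COM-1 to COM-3 overlapped the NC range and COM-4 to COM-6 lay wholly below it, close to COM+Met. The pooled difference of COM from NC was -0.63 (95% confidence interval -1.47 to 0.20, limma adjusted p = 0.18). It was 0.25 with COM-1 to COM-3 alone and -1.52 with COM-4 to COM-6 alone, where it was called. COM+Met differed from COM by -0.45 overall (95% confidence interval -1.28 to 0.38, adjusted p = 0.474), -1.34 against COM-1 to COM-3 and 0.44 against COM-4 to COM-6. Clec7a fell in COM+Met against NC by 1.08 (SE 0.16, 2.12-fold, adjusted p = 3.73e-05), with no overlap. That call was lost, at -0.97, without COM+Met-1 and, at -0.77, after median-of-ratios scaling.

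Clec5a encodes MDL-1, a DAP12-coupled receptor known from its binding of dengue virus. Its NC libraries measured 80.1, 91.9, 81.0, 57.6, 54.5 and 56.4 FPKM. The COM libraries fell apart more widely than for most of the set, at 120, 122 and 122 in libraries 1 to 3 and 38.7, 40.2 and 50.4 in libraries 4 to 6. The COM+Met libraries spanned only 34.1 to 39.7 FPKM. COM-1 to COM-3 stood above the NC range and COM-4 to COM-6 below it, and the pooled difference was 0.07 (95% confidence interval -0.63 to 0.77, limma adjusted p = 0.872). It was 0.81 with COM-1 to COM-3 alone (adjusted p = 0.00359) and -0.67 with COM-4 to COM-6 alone (adjusted p = 0.013). COM+Met differed from COM by -0.96 (SE 0.30, adjusted p = 0.0541), which did not pass. It was called without COM-4 (-1.14), without COM-5 (-1.13) or without COM-6 (-1.06), and on the TPM scale (-1.02, adjusted p = 0.0427). The limma adjusted p also passed, at under 2-fold, after median-of-ratios scaling (0.0198), after quantile normalisation (0.0336) and with all 18 libraries fitted (0.0228). Over the alternatives the difference of COM+Met from COM ran from -1.70 to -0.22. Against NC the COM+Met libraries were all lower, by -0.89 (SE 0.13, adjusted p = 2.88e-05), under 2-fold, and this was called at -1.05 without NC-5 and NC-6.

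Among the receptors with an ITIM, Clec4a2 fell in COM against NC and Clec12a was higher. Clec4a2 encodes DCIR, which restrains dendritic cells and macrophages. The NC libraries 1 to 6 measured 109, 110.1, 120.0, 126, 69.2 and 78.3 FPKM. In COM it was 60.1, 60.4, 63.8, 17.7, 17.0 and 20.9, and in COM+Met 5.65, 6.09, 8.34, 7.21, 7.03 and 7.98. The 3 groups did not overlap at any point, and COM-4 to COM-6 lay between COM-1 to COM-3 and COM+Met. Clec4a2 fell by 1.53 in COM against NC (SE 0.36, 2.89-fold, limma adjusted p = 0.0035). With COM-1 to COM-3 alone the change was -0.69 (adjusted p = 0.0114), under 2-fold. In COM+Met it fell by 2.12 against COM (SE 0.35, 4.36-fold, adjusted p = 0.002) and by 3.66 against NC (SE 0.15, 12.6-fold, adjusted p = 2.71e-10). Both of these calls held in every alternative run, with values from -2.96 to -1.28 against COM and from -3.87 to -3.13 against NC. By mean FPKM Clec4a2 went from rank 573 among all genes in NC to rank 1531 in COM and rank 5936 in COM+Met.

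Clec12a encodes MICL, an inhibitory receptor that recognises uric acid crystals and dead cells. It had 12.4, 21.7 and 23.5 FPKM as lowest, median and highest NC values. The COM values were 27.9, 36.4 and 66.1, and those of COM+Met were 21.6, 35.2 and 40.1. All COM libraries were above all NC libraries, COM-4 to COM-6 (43.6 to 66.1) were above COM-1 to COM-3 (27.9 to 29.2), and COM+Met-1 lay within the NC range. COM was higher than NC by 0.996 (SE 0.23, limma adjusted p = 0.00316), a shade under the 2-fold limit, and the gene was called when any of NC-1 to NC-4 or COM-1 to COM-3 was left out, at 1.04 to 1.08. It was also called with a pseudocount of 0.1 (1.03), on the TPM scale (1.02), after median-of-ratios scaling (1.29) and after quantile normalisation (1.13). Without COM-1 to COM-3 it was called at 1.39. The change shrank to 0.75 without NC-5 and NC-6, 0.60 with COM-1 to COM-3 alone and 0.43 with sample weights. Without NC-5, NC-6 and COM-4 to COM-6 it was 0.35. Each of these kept an adjusted p below 0.05. COM+Met differed from COM by -0.23 (95% confidence interval -0.69 to 0.24, adjusted p = 0.522), with a change of sign to 0.17 against COM-1 to COM-3 alone. Against NC it was higher by 0.77 (SE 0.18, adjusted p = 0.00187), under 2-fold.

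Clec4a1 and Clec4a3 encode relatives of DCIR without its inhibitory motif and lie next to each other. Clec4a1 had 30.6, 25.5, 33.9, 31.4, 5.27 and 4.56 FPKM in NC libraries 1 to 6, the last pair being far below the rest. COM libraries had 42.0, 51.6, 51.8, 57.6, 57.9 and 108 FPKM, and COM+Met libraries had 22.4, 37.6, 41.1, 40.9, 38.9 and 42.4. Every COM library exceeded every NC library, COM-6 being the highest, and COM+Met-1 was the only COM+Met library within the NC range. Clec4a1 rose by 1.74 in COM against NC (SE 0.48, 3.33-fold, limma adjusted p = 0.00902). Without NC-5 and NC-6 the difference was 0.93 (adjusted p = 0.0069), under 2-fold, and with COM-1 to COM-3 alone it was 1.46 with adjusted p = 0.0846. COM+Met lay below COM by -0.67 (SE 0.21, adjusted p = 0.0559) and above NC by 1.06 (SE 0.47, adjusted p = 0.0563), and neither passed. The former had an adjusted p of 0.0426 without COM-1 and of 0.0331 without COM-6, at -0.77 and -0.50, under 2-fold. The latter passed at 2-fold without NC-1, NC-3, NC-4 or COM+Met-1, at 1.20 to 1.26.

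Clec4a3 did not pass between NC and COM. Its lowest, median and highest FPKM were 25.2, 51.7 and 70.3 in NC, 37.9, 45.4 and 62.2 in COM, and 18.8, 29.5 and 30.8 in COM+Met. The COM libraries lay inside the NC range and above every COM+Met library. COM differed from NC by 0.09 (95% confidence interval -0.45 to 0.63, limma adjusted p = 0.773), and the sign turned without NC-5 (-0.06) or NC-6 (-0.06). COM+Met was lower than COM by -0.75 (SE 0.15, 1.69-fold, adjusted p = 0.00546), and lower than NC by -0.66 (SE 0.25, adjusted p = 0.0259), both under 2-fold. The latter had an adjusted p of 0.0543 to 0.0603 without NC-1, NC-3, NC-4 or COM+Met-1 and of 0.203 after median-of-ratios scaling, and was called at -1.05 against NC-1 to NC-4.

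For COM+Met against COM the set counted 0 called higher, 1 called lower (Clec4a2), 3 with an adjusted p below 0.05 (Clec4a2, Clec4a3 and Clec4n, all lower) and 3 without overlap between groups (the same genes). Over the 10364 genes tested there, 0.608% were called higher, 1.61% were called lower, 13.4% had an adjusted p below 0.05 and 11.2% had groups that did not overlap. The median change of the set was -0.67, and that of all genes was 0.0033. The counts for COM+Met against NC were 2 called higher (Clec4e and Clec4d), 3 called lower (Clec4a2, Clec4n and Clec7a), 8 with an adjusted p below 0.05 and 6 without overlap. The shares over 10786 genes were 5.66%, 13.6%, 75.2% and 57.6% in the same order. The COM and NC libraries each serve in 2 of these comparisons, so the changes are given side by side and were not related to each other.

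**Figure D2:**
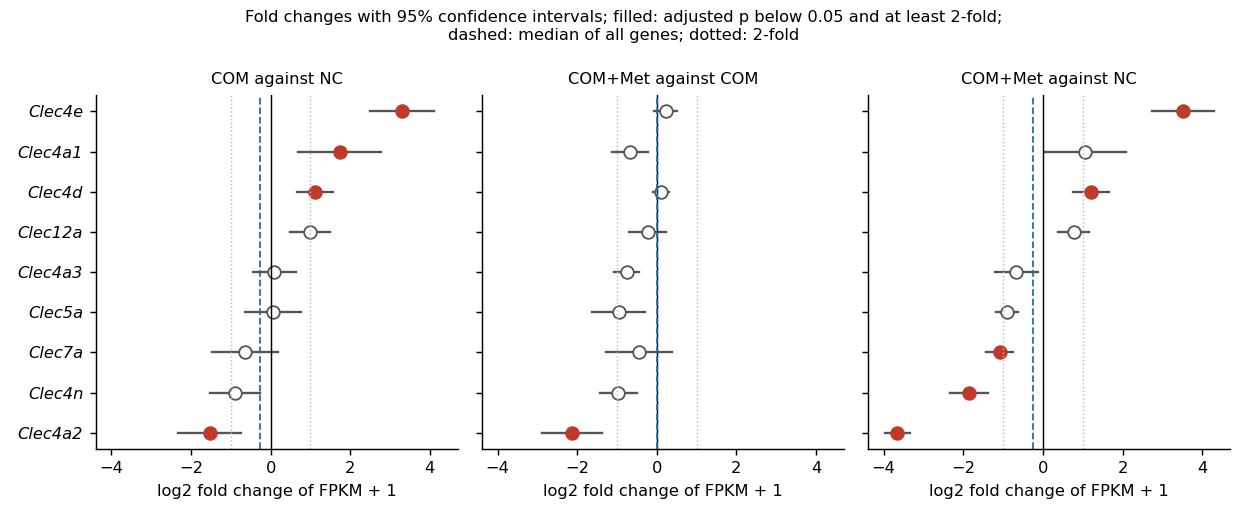
log2 fold change of FPKM + 1 (points) with its 95% confidence interval (lines) for each lectin in the 3 comparisons; filled points were called, the dashed line is the median of all genes and dotted lines mark 2-fold. Clec4e and Clec4a2 are the 2 ends of the set against NC, at 3.30 and -1.53 in COM and 3.52 and -3.66 in COM+Met, while against COM only Clec4a2, at -2.12, was called.

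The summed FPKM of the 9 genes ran from 1476 to 3419 in NC, 3365 to 4290 in COM and 3311 to 3779 in COM+Met. Clec4n supplied 48.3% to 53.4% of the sum in NC, 9.50% to 23.6% in COM and 8.86% to 10.7% in COM+Met. Clec4e supplied 5.58% to 12.5%, 42.4% to 65.7% and 62.7% to 65.2% in the same groups. Clec7a, the next in NC, went from 17.0% to 24.8% there to 4.24% to 16.1% in COM and 3.998% to 7.41% in COM+Met. Thus in NC the fungal mannan and beta-glucan receptors led in every library, and Mincle led in every COM and COM+Met library. NC-5 and NC-6, whose summed FPKM was the lowest of the 18 libraries, were also lowest in NC for the Clec4n share, at 48.3% each against 50.1% to 53.4% in NC-1 to NC-4. The FPKM of Clec4e over that of Clec4a2, an activating over an inhibitory receptor, was 1.12 to 3.88 in NC, 26.7 to 135 in COM and 270 to 436 in COM+Met. This pair holds the opposite ends of the set against NC and does not stand for the classes. Clec12a, also with an ITIM, was higher in COM than in NC (log2 fold change 0.996), and the activating Clec4n was lower (-0.90). The level of Clec4a2 is also the least certain of the set. These shares and ratios restate the levels above and were not tested.

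**Figure D3:**
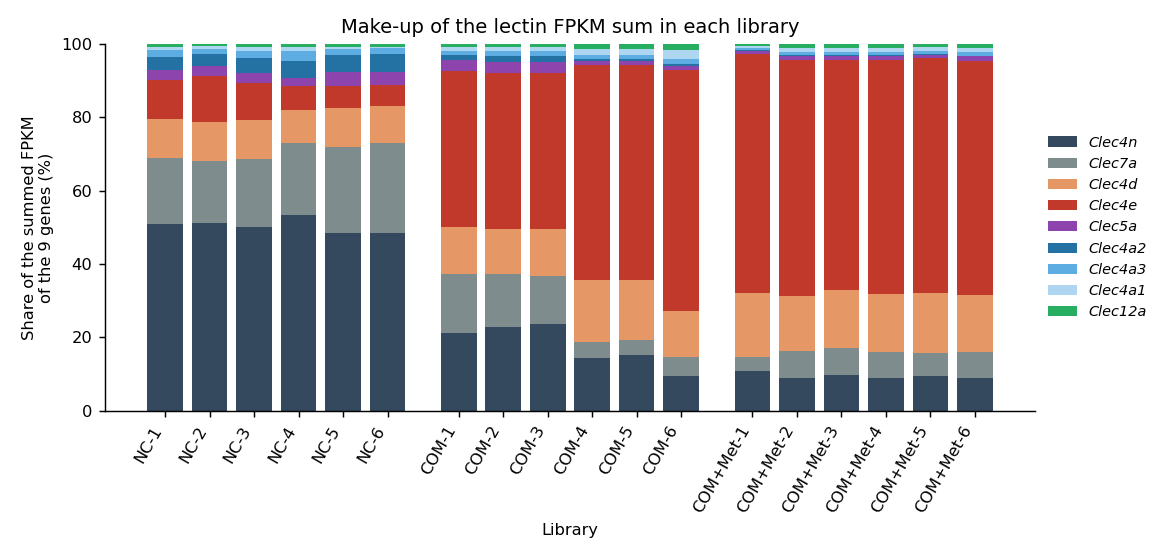
Share (%) of the summed FPKM of the 9 lectins taken by each gene, with a bar per library. Clec4n takes 48.3% to 53.4% of the bar in NC, and Clec4e takes 42.4% to 65.7% in COM and 62.7% to 65.2% in COM+Met.

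**Figure D4:**
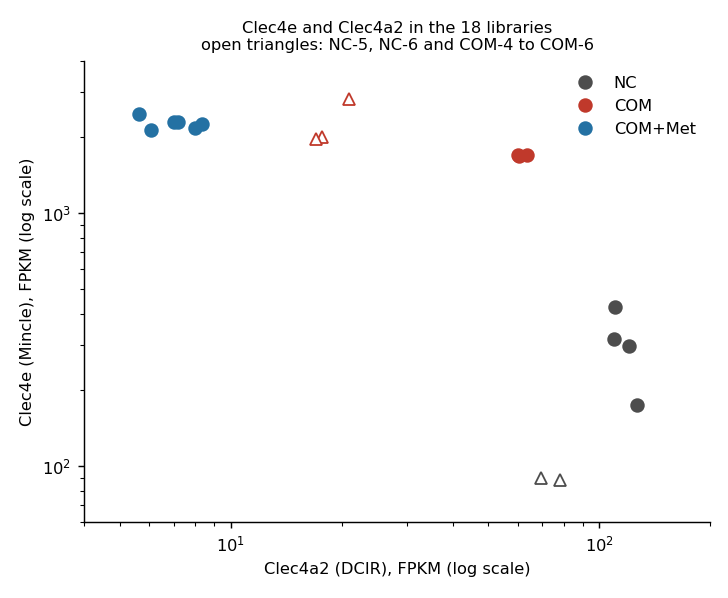
FPKM of Clec4e against that of Clec4a2 in the 18 libraries, both on log axes, with open triangles for NC-5, NC-6 and COM-4 to COM-6. These genes are the opposite ends of the set against NC, and the level of Clec4a2 is the least certain. The groups occupy separate areas on both axes together, with COM-4 to COM-6 (17.0 to 20.9 FPKM of Clec4a2) between COM-1 to COM-3 (60.1 to 63.8) and COM+Met (5.65 to 8.34).

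The adaptors of the activating receptors differed from each other in COM. Fcer1g rose and Tyrobp was lower at under 2-fold. Of 45 signalling partners tested in COM against NC, 5 were called in the upward and 2 in the downward direction, and their median change was -0.13 beside -0.27 for all genes, of which 5.99% and 11.7% were called in these directions. After median-of-ratios scaling the counts were 8 and 1 with a median of 0.14, and without COM-1 to COM-3 they were 5 and 6. Without NC-5 or without NC-6 they were 3 and 2, and without COM-4, COM-5 or COM-6 they were 5 and 1. Fcer1g encodes the FcRγ chain used by Mincle, MCL and Dectin-2, and it rose from 685 ± 43.3 to 1504 ± 107 FPKM (log2 fold change 1.13, SE 0.10, limma adjusted p = 2.73e-06), with no overlap, although it fell under 2-fold at 0.83 after quantile normalisation. Tyrobp, the DAP12 chain used by MDL-1, was lower, at 768 ± 54.3 in NC and 444 ± 142 in COM (-0.89, SE 0.26, adjusted p = 0.0121), under 2-fold, and COM-6 at 158 FPKM was far below the other COM libraries (465 to 535). Syk, the kinase shared by both, stood at 113 ± 11.1 and 158 ± 27.5 FPKM (0.46, adjusted p = 0.0119), and phospholipase Plcg2 at 56.2 ± 4.96 and 35.8 ± 6.65 (-0.65, adjusted p = 0.000884).

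Within the CARD9 complex, Malt1, its protease, rose from 69.2 ± 36.6 to 137 ± 19.1 FPKM (1.17, SE 0.34, adjusted p = 0.0104). That call was lost without NC-5 or without NC-6, and the lowest value over the alternatives was 0.63. Card9 itself was lower, at 41.5 ± 4.64 in NC and 23.0 ± 9.29 in COM (-0.93, adjusted p = 0.00711), under 2-fold, and was called when COM-1, COM-2 or COM-3 was left out. Bcl10 stood at 40.4 ± 10.1 and 26.7 ± 8.58 FPKM (-0.61, adjusted p = 0.0439). Ptpn6, which encodes the SHP-1 phosphatase recruited by ITIMs, stood at 199 ± 13.6 and 177 ± 22.5 (-0.17, adjusted p = 0.207), and its sign turned after median-of-ratios scaling. Besides Malt1 and Fcer1g, the largest rises were Blnk, an adaptor downstream of Syk, at 3.08 (adjusted p = 2.97e-06) and Src, a tyrosine kinase, at 2.09 (adjusted p = 0.00264), and the falls were Dok3, an inhibitory adaptor, at -1.32 (adjusted p = 0.0124) and Vav3, an exchange factor, at -1.05 (adjusted p = 0.000227). Dok3 lost its call without COM-6 and Vav3 without COM-4 or without COM-5.

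Calls of these partners in COM+Met against COM were few, as they were over all genes (0.608% higher and 1.61% lower). Of 45 tested, 0 rose and 1 fell, the Src-family kinase Fgr at -1.14 (SE 0.20, adjusted p = 0.00279). That call was lost against COM-4 to COM-6 alone. The differences were -0.12 for Fcer1g (adjusted p = 0.401), 0.32 for Tyrobp (adjusted p = 0.45) and 0.27 for Syk (adjusted p = 0.163). Those of Card9 (-0.23), Bcl10 (-0.35), Malt1 (-0.08), Plcg2 (-0.24) and Ptpn6 (0.03) had adjusted p of 0.184 to 0.889. Against NC, 5 partners rose and 4 fell in COM+Met, beside 5.66% and 13.6% of all genes. Blnk (3.25), Src (2.66) and Irf1 (1.85), an interferon-response factor, were the largest rises, and Fgr (-2.04), Vav3 (-1.53) and Dok3 (-1.51) the largest falls, each with an adjusted p of 3.81e-05 or less. Fcer1g (1.02) and Malt1 (1.09) were called higher and Card9 (-1.15) lower in that comparison. The first 2 lost their call without NC-5, Malt1 also without NC-6, and Fcer1g and Card9 lost theirs after quantile normalisation.

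**Figure D5:**
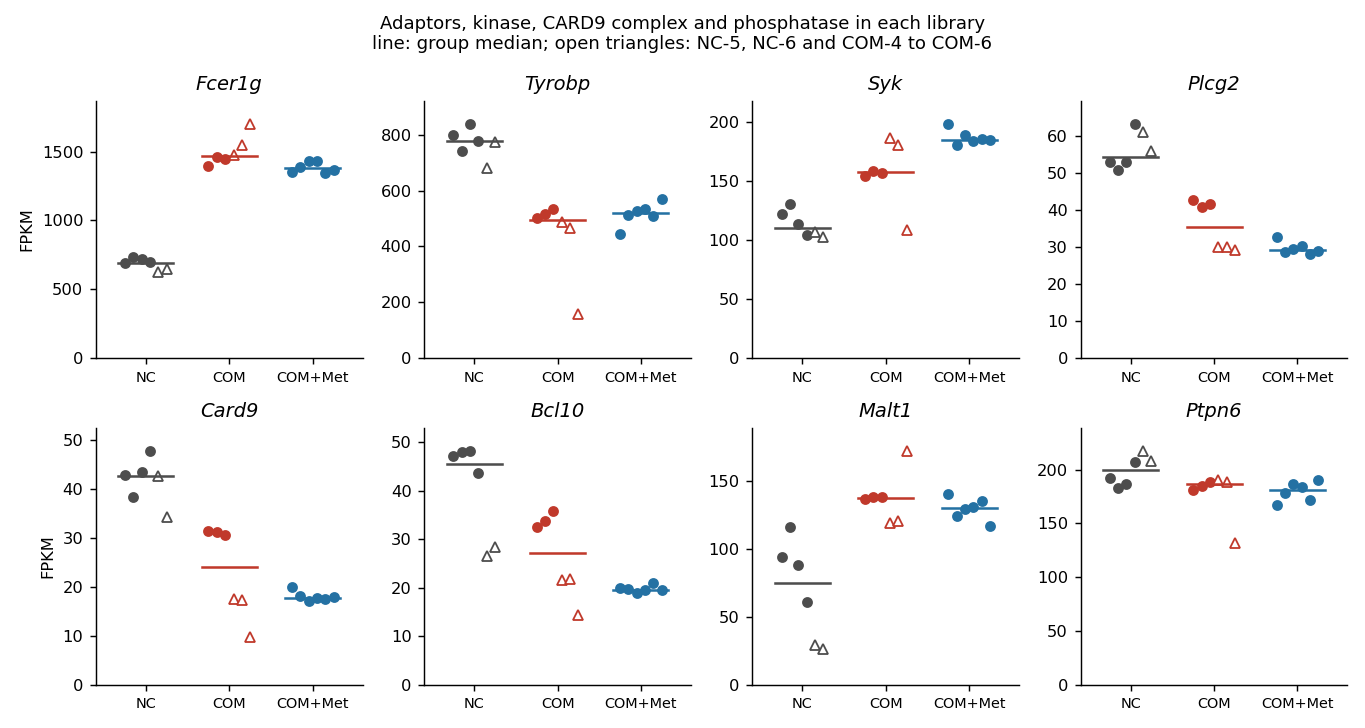
FPKM (linear axis from 0) of adaptor, kinase, phospholipase, CARD9-complex and phosphatase genes in each library, with a line at the group median and open triangles for NC-5, NC-6 and COM-4 to COM-6. Fcer1g lies at 623 to 737 FPKM in NC and at 1345 or above in every COM and COM+Met library, and Tyrobp lies below its NC range in both.

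Among other C-type lectin genes the largest change was a fall of the mannose receptor. Of 51 listed, 19 passed the filter in COM against NC, and of these 4 rose and 7 fell, at a median of -0.56 against -0.27 for all genes. The shares of all genes called there were 5.99% higher and 11.7% lower. Without COM-4 to COM-6 the median of the list was -0.055, against -0.14 for all genes. With a filter of 5 FPKM it was 0.049 over 11 genes, against -0.26. Cd72 (2.87), Cd69 (2.66) and Layn (1.96), an inhibitory coreceptor, an early activation antigen and a hyaluronan receptor, rose most. Cd69 ran from 0.74 to 4.06 and Cd72 from 1.20 to 4.09 over the alternatives, and Cd69 was not called with sample weights or when NC-5, NC-6 and COM-4 to COM-6 were left out. Mrc1 (-4.29), the mannose receptor, fell most, from 79.9 ± 32.5 to 3.26 ± 1.93 FPKM (limma adjusted p = 6.08e-07). Clec4b1 (-3.05), which lies between Clec4a3 and Clec4a2 in the cluster, fell from 9.91 ± 3.04 to 0.302 ± 0.31 FPKM, so near 0 that its log2 fold change ran from -5.07 to -1.47 over the pseudocounts and other alternatives, and Cd93 (-2.84) from 60.4 ± 7.33 to 7.82 ± 2.46. Between COM+Met and COM, 1 of 14 tested was called, Olr1, the oxidised LDL receptor (-1.33, adjusted p = 0.0121), a call lost against COM-4 to COM-6 alone. Of all genes, 0.608% were called higher and 1.61% lower there. With COM+Met set against NC, 4 of 18 rose and 11 fell, where 5.66% and 13.6% of all genes were called higher and lower. The counts were 3 and 5 with a pseudocount of 5, and 4 and 8 after quantile normalisation. The calls of the list were led by Cd69 (3.33), Cd72 (3.02) and Layn (1.82) and by Mrc1 (-4.39), Clec4b1 (-3.31) and Cd93 (-2.53). Clec4b1, on the same scale as before, ran from -5.96 to -1.53 there. Neighbours in the cluster on chromosome 6 thus included both a rise (Clec4e) and falls (Clec4a2 and Clec4b1) in COM against NC.

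For each lectin the gene with the most similar profile was taken as the one with the smallest root mean square difference of log2(FPKM + 1), each centred on its own mean, over the 18 libraries and 10742 genes outside the set. Clec4d had the closest match, St3gal1 at 0.11, followed by Ccdc122 for Clec5a at 0.17, Ccl9 for Clec4n at 0.18, Apobec3 for Clec12a at 0.19 and Cd300ld for Clec4a3 at 0.19. Looser matches were Slfn5 for Clec4e at 0.24, Nrp1 for Clec7a at 0.24, Aif1 for Clec4a1 at 0.35 and Spn for Clec4a2 at 0.38. St3gal1 averaged 25.1, 52.1 and 57.3 FPKM in NC, COM and COM+Met, and Slfn5 averaged 13.6, 115 and 126. Within the set Clec4n and Clec7a were 0.52 apart on this measure and the neighbours Clec4d and Clec4e 1.098 apart. These distances share the libraries, and so also the splits within NC and COM, and are a description.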

How the data were processed

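Gene expression was measured by RNA-seq of TruSeq libraries from total RNA of 18 BMDM samples, 6 per group by their titles. The authors deposited a table of FPKM per gene. Per the labels, Bowtie 0.12.2 is named and mm8 and mm9 are listed as builds, with no role stated, and no source used here gives the quantifier or the annotation. Read depth is unknown from FPKM, so no counting error is given.

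FPKM + 1 was log2 transformed and fitted with limma 3.58.1 in R 4.3.3 (lmFit, eBayes with a trend) on the 12 libraries of each comparison, for genes averaging 1 FPKM or more there, with Benjamini-Hochberg adjustment over all genes tested. The fit was first tested on simulated data. Levels are mean ± SD, and exact permutation tests were two-sided. Gene positions came from GENCODE M21 on GRCm38 and start regions from RefSeq on GRCm38.p6, which the labels do not list.

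All 9 lectins were named, with, per list and comparison, the 3 largest called rises and falls, 8 partner genes and the nearest gene to each lectin. The lectins, lists and alternatives were chosen with earlier results of these data known.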

Additional observations from a re-analysis of the deposited data

Results flagged for a closer look

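In each of the 27 groups of 6 values (9 lectins in 3 groups), the highest and lowest library were checked for a wide gap to the rest by Dixon's test at the 95% level. The test flags about 1 in 20 groups by chance, and 5 were flagged. COM-6 was far above the other COM libraries for Clec4a1, at 108 FPKM, and for Clec4e, at 2816 FPKM. COM+Met-1 was far below the other COM+Met libraries for Clec4a1 (22.4 FPKM), Clec4a3 (18.8 FPKM) and Clec7a (151 FPKM). COM-6 also had the lowest Tyrobp of all 18 libraries, at 158 FPKM. The direction of each change stayed without the flagged library in COM against NC for Clec4a1 and Clec4e and in COM+Met against NC for Clec4a1, Clec4a3 and Clec7a.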

How the results depend on the processing

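The changes of the 9 lectins were recomputed with other pseudocounts, filters, scalings and models and with libraries left out. In COM against NC 191 of 234 values kept their direction and side of the threshold, in COM+Met against COM 198 of 216 and in COM+Met against NC 192 of 207. The number called in COM against NC was 4. It was 1 with sample weights, 2 without COM-4 to COM-6, and, in alternatives chosen after seeing the data, 7 without COM-1 to COM-3 and 1 without NC-5, NC-6 and COM-4 to COM-6. For COM+Met against COM it was 1, against 3 on the TPM scale, 4 with sample weights and 4 without COM-4 to COM-6, and from 1 to 3 with a library left out.

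Signs turned in COM against NC for Clec4a3 (-0.16 with sample weights, -0.064 to 0.22 with a library left out, negative without NC-5 or NC-6, -0.29 without both, -0.25 without these and COM-4 to COM-6), for Clec5a (-0.083 to 0.24 with a library left out, negative when any library among COM-1 to COM-3 was dropped, -0.086 without NC-5 and NC-6, -0.67 without COM-1 to COM-3) and for Clec7a (0.25 without COM-4 to COM-6, 0.064 without NC-5 and NC-6 as well). Between COM+Met and COM they turned for Clec12a (0.22 with sample weights, 0.17 without COM-4 to COM-6) and Clec7a (0.44 without COM-1 to COM-3). The cause was not tested beyond which libraries entered.

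Of all genes, 1926 were called in COM against NC and 980 with a pseudocount of 5. The counts were 230 in COM+Met against COM against 370 and 90 with pseudocounts of 0.1 and 5, 719 with sample weights and 771 without COM-4 to COM-6, and 2078 in COM+Met against NC against 1117 with a pseudocount of 5. The split of higher and lower calls was 653 and 1273 in COM against NC, 852 and 826 after median-of-ratios scaling and 801 and 894 after quantile normalisation. For COM+Met against NC it was 611 and 1467, 832 and 983, and 792 and 1018. With a replicate block the lectins called numbered 4, 1 and 5 in the 3 comparisons, as without it. Same-numbered libraries did not deviate together (correlations from -0.225 to 0.0562, 0 of 6 pairs over 0.1 in each comparison). The splits within NC and COM enter these correlations, so they cannot exclude a pairing by number. Depth is unknown.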

Other observations

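Of 28 listed genes that signalling through these receptors is known to induce, 24 passed the filter in COM against NC, and 12 were called higher and 3 lower by limma, at a median log2 change of 1.23. These genes are also induced by many other stimuli. Of all genes, 5.99% were called higher and 11.7% lower in this comparison, at a median of -0.27. Il12b and Il12a, the subunits of interleukin 12, rose by 5.65 (SE 0.50, adjusted p = 2.11e-06) and 4.06 (SE 0.24, adjusted p = 7.42e-08), from 4.11 ± 4.24 to 183 ± 22.2 FPKM and from 0.707 ± 0.778 to 25.5 ± 2.78. Nos2, the inducible nitric oxide synthase, rose by 3.84 (adjusted p = 0.00922), but its COM libraries ran from 4.42 to 260 FPKM and the call was lost without NC-5 and NC-6, so that its size is poorly set. The falls were Egr2 (-1.72), Nr4a1 (-1.27) and Csf3 (-1.64), the first 2 being immediate-early transcription factors and the last a granulocyte growth factor. Csf3 lost its call when NC-1, NC-2, NC-3, NC-4 or COM-6 was left out. The median of the list was 0.43 without NC-5 and NC-6, with 9 called higher and 3 lower. With sample weights it was 0.35, with 8 and 4 calls. Without NC-5, NC-6 and COM-4 to COM-6 it was 0.089, with 9 and 5 calls.

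Between COM+Met and COM, 1 of 21 genes of that list was called higher and 3 lower, beside 0.608% and 1.61% of all genes. The counts were 6 and 4 without COM-4 to COM-6, 5 and 4 with sample weights, 3 and 2 without COM-4, 2 and 2 without COM-5, 0 and 2 without COM-2, and 1 and 1 without any of COM+Met-2 to COM+Met-6. Il1b, which encodes interleukin 1 beta, fell by 1.64 (SE 0.10, adjusted p = 5.61e-06), from 535 ± 67.8 to 170.2 ± 9.25 FPKM, with a range of -1.70 to -1.59 over the alternatives. Its call was lost when the model was fitted to all 18 libraries together. Tnf rose by 1.33 (SE 0.34, adjusted p = 0.0226) and lost its call in that fit, without COM-2 and against COM-4 to COM-6 alone. Cxcl3 (-1.63) and Il1rn (-1.003), a chemokine and the interleukin 1 receptor antagonist, lost theirs in many of the runs that left out a library. Against NC, 14 of 24 of that list rose and 3 fell in COM+Met, beside 5.66% and 13.6% of all genes. The rises were led by Il12b (5.04), Nos2 (5.01) and Il12a (4.53) and the falls by Nr4a1 (-2.07), Csf3 (-1.73) and Egr2 (-1.69). Without NC-5 and NC-6 the list had 10 genes called higher and 3 lower against NC, and its median went from 1.84 to 0.65.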
